A study of Mus musculus with 3 samples.

Results

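Hox genes encode homeodomain transcription factors that sit in 4 clusters, HoxA to HoxD, and are numbered by paralogue group along each cluster. Of the 24335 gene symbols in the merged table of mouse epididymal cells, 33 were Hox genes, taken by name alone (Hox, a cluster letter and a number). They comprised 10 HoxA, 9 HoxB, 7 HoxC and 7 HoxD genes, and together held 63338 of the 81337479 unique molecular identifiers (UMIs, tags that each mark 1 captured transcript). HoxB genes held 44440 of these UMIs, HoxD genes 10300, HoxA genes 4640 and HoxC genes 3958. Genes of these clusters that are not rows of the table were not analysed here.

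Sperm mature and wait in the epididymis, a long coiled duct behind the testis. It was cut into its head (caput), body (corpus) and tail (cauda) from untreated wild-type C57BL/6 mice 56 days old (series text: C57Bl/6J), and each region gave 1 single-cell RNA library made with a Singleron microfluidic kit. All groups shared strain, age and genotype and differed, by their labels, only in region. The number of animals behind a library is not stated in the labels, and with 1 library per region there is no replicate: every interval below is an exact 95% interval for counting error only, UMIs are taken as independent molecules, and no p-value is given. Region therefore cannot be told apart from library, dissection or handling.

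In vertebrate embryos, genes with low paralogue numbers are switched on early and far forward along the body axis, and genes with high numbers later and further back, an order called collinearity. The epididymis and vas deferens form from the Wolffian duct, a derivative of intermediate mesoderm, and its mesenchyme instructs the epithelium which segment to become. Many adult mesenchymal cells, fibroblasts among them, keep a Hox pattern that reflects where in the body they formed.

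The 7 homeoboxes shown here belong to genes on which the regional and cell-class differences turn. A homeobox is the stretch of coding DNA for the homeodomain, the part of the protein that binds DNA, and one was found in the transcripts of all 33 members. Each is 180 bases, read 5′ to 3′ from the GENCODE transcripts of the GRCm38 assembly. The 18 capitals, at positions 142 to 159, encode the core of the third helix, which lies in the major groove of DNA.
Hoxb7: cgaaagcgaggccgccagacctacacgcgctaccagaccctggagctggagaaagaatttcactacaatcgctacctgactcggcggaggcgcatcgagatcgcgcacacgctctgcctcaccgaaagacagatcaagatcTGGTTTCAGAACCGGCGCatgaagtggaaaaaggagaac
Hoxc8: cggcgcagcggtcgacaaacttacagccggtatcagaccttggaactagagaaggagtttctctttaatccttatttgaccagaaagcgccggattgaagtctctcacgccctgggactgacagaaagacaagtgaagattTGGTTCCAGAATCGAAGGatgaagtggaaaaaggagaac
Hoxc9: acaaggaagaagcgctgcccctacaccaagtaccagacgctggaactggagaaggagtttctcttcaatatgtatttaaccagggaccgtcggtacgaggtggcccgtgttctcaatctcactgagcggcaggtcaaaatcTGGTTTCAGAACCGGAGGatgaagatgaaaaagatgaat
Hoxa10: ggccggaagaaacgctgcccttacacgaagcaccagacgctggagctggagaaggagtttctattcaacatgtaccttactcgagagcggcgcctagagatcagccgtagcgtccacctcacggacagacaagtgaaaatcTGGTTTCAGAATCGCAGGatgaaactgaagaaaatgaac
Hoxc10: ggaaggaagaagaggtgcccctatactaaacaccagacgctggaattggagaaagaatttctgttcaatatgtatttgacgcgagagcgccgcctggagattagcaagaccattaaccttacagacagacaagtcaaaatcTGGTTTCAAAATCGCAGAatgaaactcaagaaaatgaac
Hoxa11: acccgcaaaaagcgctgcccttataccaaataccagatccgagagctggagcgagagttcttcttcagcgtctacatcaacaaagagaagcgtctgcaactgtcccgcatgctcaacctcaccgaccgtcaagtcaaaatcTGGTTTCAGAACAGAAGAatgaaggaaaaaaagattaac
Hoxd11: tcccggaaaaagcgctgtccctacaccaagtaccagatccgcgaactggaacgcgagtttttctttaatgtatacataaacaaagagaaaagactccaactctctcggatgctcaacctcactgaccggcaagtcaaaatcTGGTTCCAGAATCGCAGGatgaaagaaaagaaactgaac
Among these 7, paralogues of the same number were the most alike. Hoxa10 and Hoxc10 shared 145 of 180 bases and 56 of 60 encoded residues, and Hoxa11 and Hoxd11 shared 145 bases and 57 residues. Neighbours in a cluster were less alike: Hoxc8 and Hoxc9 shared 116 bases and 44 residues, and Hoxa10 and Hoxa11 shared 122 bases and 41 residues. Hoxb7 and Hoxa11 shared 30 residues, the fewest among the 21 pairs. The 7 capital runs all differed as DNA.

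On GRCm38, the HoxA members of the table lie on the minus strand of chromosome 6 (52155590 to 52245810) and the HoxB members on the plus strand of chromosome 11 (96271457 to 96368256). The HoxC members lie on the plus strand of chromosome 15 (102954427 to 103036852) and the HoxD members on the plus strand of chromosome 2 (74679557 to 74765142). Annotated genes of the clusters that are not rows of the table lie outside these spans. The models of 23 of the 33 members are overlapped by another gene, 15 by one on the same strand and 14 by one on the other. Hoxa10, Hoxb1, Hoxb4, Hoxb7, Hoxb8, Hoxb9 and Hoxd9 are among the 10 that are not. On the same strand, Hoxc6, Hoxc8, Hoxc9 and Hoxc10 overlap the long Hoxc5 model, Hoxa5 lies within Hoxa3 and Hoxd4 within Hoxd3. Hoxa11 overlaps its antisense transcript Hoxa11os, and Hoxa7, Hoxb5, Hoxb6 and Hoxd8 also overlap genes of the other strand. The counts of all 23 overlapped members are uncertain to the extent that the counting could share reads. The sources used here do not say whether strand was used in counting.

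The libraries held 4925 to 4961 cells and 18341476 to 41500792 UMIs, and cells with at least 200 detected genes were kept (4939, 4831 and 4785 in caput, corpus and cauda). Median UMIs per cell were 5077, 2654 and 2198, and over 20% of UMIs were mitochondrial in 3.38%, 28.5% and 25.9% of cells. No cell annotation was used: each cell was placed in a class by the markers it carried above its library's background, and classes are called "-like" for that reason. In caput, corpus and cauda the gate gave 1698, 1334 and 818 principal-like, 349, 223 and 68 clear-like, 215, 73 and 35 basal-like, 172, 417 and 1311 fibroblast-like, 70, 18 and 39 smooth muscle-like, and 182, 30 and 10 endothelial-like cells. Each class had 1 to 8 of its own markers and none of another class among its 10 leading genes. Because the gate used the same markers, this is no independent check of the classes. Among fibroblast-like cells 3, 7 and 91 had exactly the 4 markers required, and 41, 54 and 105 further cells fell just short of the lead over the next class. Cells without a clear lead of 1 class were set aside (1458, 1200 and 918), as were cells with too few markers (369, 687 and 895). Kept cells could still carry markers of another class. With those carrying 2 left out, 1059 of 1698 caput principal-like and 42 of 172 caput fibroblast-like cells remained. The libraries shared 14 to 21 cell barcodes per pair. Counts were summed per class and region and are given as counts scaled to a sum of 1000000 UMIs (CPM). A UMI marks a molecule and not a read, so levels were not divided by gene length. Because the sums are relative, fewer transcripts of a gene and more of all others cannot be told apart.

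Fibroblast-like cells, the collagen-producing cells of the duct's connective tissue, carried a different Hox set in each region. In caput, genes of paralogue groups 4 to 8 led, with Hoxc8 and Hoxa7 the highest. In corpus Hoxc9 was the highest, and in cauda Hoxa10 and Hoxa11 were. Of the class's Hox UMIs, genes of groups 9 to 13 made up 9.18% (7.38 to 11.3) in caput, 46.7% (43.8 to 49.7) in corpus and 67.8% (66.1 to 69.5) in cauda. With group 9 left aside, groups 10 to 13 made up 0.221% in caput, 12.7% in corpus and 47.2% in cauda. The table held no Hox gene above group 11, so here and below both sets end at that group. The intervals of the 3 regions do not overlap under either definition. The summed level of all 33 genes was highest in caput, with a CPM of 1255 (1174 to 1339) in caput, 686 (646 to 728) in corpus and 516 (498 to 535) in cauda.

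Comparisons between regions used 1 size rule: a level at least 2-fold apart, an interval of the ratio that excludes 1, and at least 20 UMIs in the pair of regions together. Between caput and cauda fibroblast-like cells, 22 members had enough UMIs, 12 were higher in caput and 7 in cauda. Over all 11239 genes with enough UMIs, the rule took 7.61% as higher in caput and 7.36% as higher in cauda. Of the 12 caput-higher members, 11 were of groups 1 to 8 and the other was Hoxb9. All 7 cauda-higher members were of groups 9 to 13. The median log2 ratio of caput over cauda was 1.28 for the 22 members and 0.02 for all genes compared. With cells that carried 2 markers of another class left out, which reduced the caput cells from 172 to 42, 6 members were higher in caput and 3 in cauda, and groups 9 to 13 held 2.60% of caput and 69.8% of cauda Hox UMIs. TMM factors (edgeR's trimmed-mean scaling of the sums) moved the log2 ratios of caput over cauda by -0.32 here and by 0.13 in principal-like cells, and no Hox gene past the rule changed direction under either setting.

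**Figure D1:**
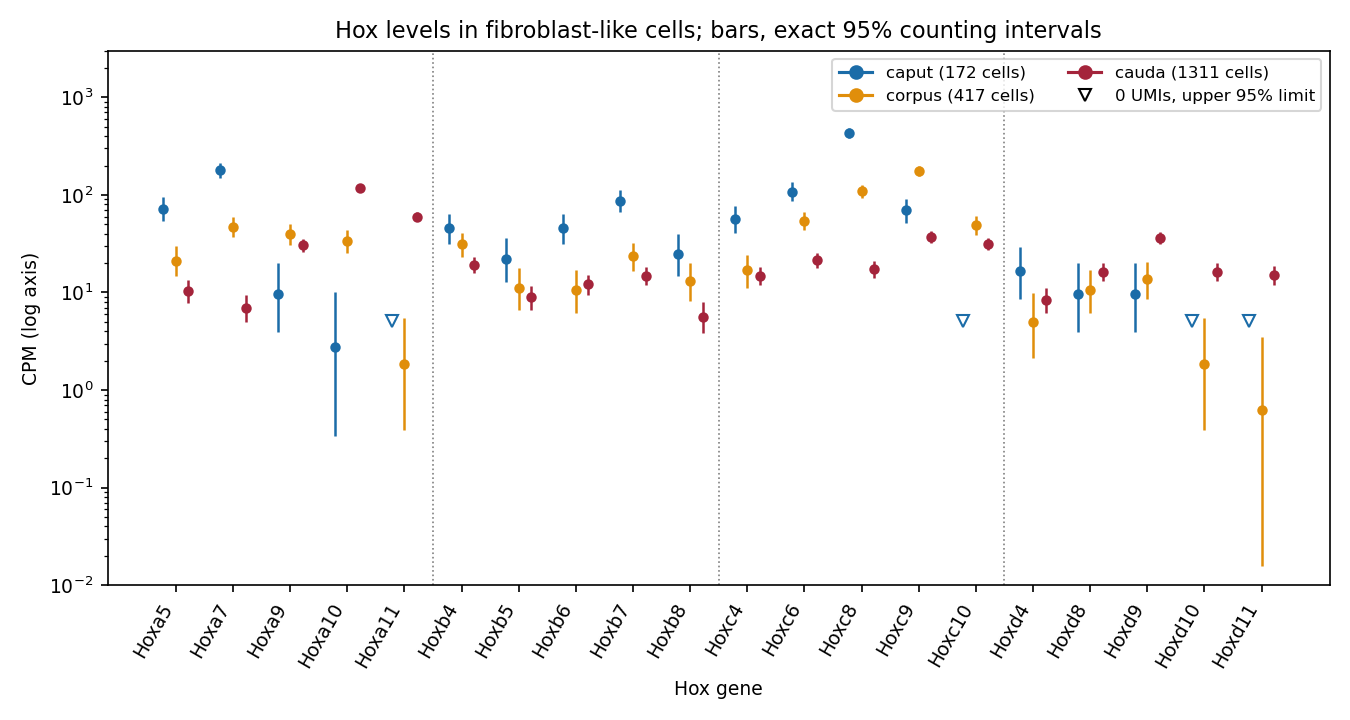
Levels of the 20 Hox genes with at least 20 UMIs in fibroblast-like cells of at least 1 region, in CPM on a log axis, by region; bars are exact 95% counting intervals, open triangles are upper limits where no UMI was counted, and dotted lines part the clusters. Caput is highest at Hoxc8 (432), corpus at Hoxc9 (174) and cauda at Hoxa10 (118).

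Hoxc8, known for its part in patterning the thoracic skeleton and spinal motor neurons, had a level, in CPM as for all levels below, of 432 (385 to 482) in caput, 109 (93.4 to 126) in corpus and 17.3 (14.1 to 21.1) in cauda. The 3 intervals are apart, and caput was 24.9 (19.8 to 31.6)-fold above cauda. Hoxa7, a paralogue of the kidney and Wolffian duct gene Hoxb7, had 179 (149 to 213) in caput, 47.3 (37.3 to 59.2) in corpus and 7.0 (5.0 to 9.53) in cauda. It followed the same order, with caput 25.6 (17.8 to 37.5)-fold above cauda. Hoxc6 had 108 (85.6 to 135) in caput, 54.2 (43.4 to 66.8) in corpus and 21.3 (17.7 to 25.5) in cauda, and Hoxa5, a gene needed in lung and trachea, had 72.2 (53.9 to 94.7) in caput, 21.2 (14.7 to 29.6) in corpus and 10.3 (7.86 to 13.3) in cauda. Caput was 5.07 (3.77 to 6.79)-fold above cauda for Hoxc6 and 6.99 (4.72 to 10.3)-fold for Hoxa5. Hoxc4 had 56.9 (40.8 to 77.2) in caput, 16.8 (11.1 to 24.5) in corpus and 14.9 (11.9 to 18.4) in cauda. Its corpus and cauda intervals overlap, and caput stood apart from both.

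Group 9 was split by cluster. Hoxc9, best known in thoracic motor neurons, had 69.4 (51.5 to 91.5) in caput, 174 (155 to 196) in corpus and 37.1 (32.3 to 42.4) in cauda, so its corpus level stood above both ends of the duct. Corpus was 4.7 (3.92 to 5.65)-fold above cauda and 2.51 (1.85 to 3.47)-fold above caput. Hoxa9, a gene of blood stem cells and axial skeleton, had 9.72 (3.91 to 20.02) in caput, 39.9 (30.7 to 50.9) in corpus and 30.6 (26.2 to 35.5) in cauda, and Hoxd9 had 9.72 (3.91 to 20.02) in caput, 13.7 (8.59 to 20.7) in corpus and 36 (31.3 to 41.3) in cauda. Both were lowest in caput, Hoxa9 with overlapping corpus and cauda intervals and Hoxd9 with cauda apart from the other regions. Hoxb9 had 23.6 (13.7 to 37.8) in caput, 5.61 (2.56 to 10.6) in corpus and 2.8 (1.6 to 4.55) in cauda from 17, 9 and 16 UMIs and was the 1 member of groups 9 to 13 that passed the size rule as higher in caput than in cauda.

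Groups 10 and 11 were at or near 0 in caput. Hoxa10, which in mice is needed for uterine identity and descent of the testis, had 2.78 (0.336 to 10.03) in caput, 33.6 (25.3 to 43.9) in corpus and 118 (109.7 to 128) in cauda. It was 42.7 (11.8 to 353)-fold higher in cauda than in caput, where it rested on 2 UMIs. Hoxa11, whose loss in male mice makes the vas deferens resemble epididymis, had 0 (up to 5.12) in caput, 1.87 (0.385 to 5.46) in corpus and 60.01 (53.8 to 66.7) in cauda. Taking 3 UMIs as the limit that a count of 0 allows, Hoxa11 was at least 14.4-fold higher in cauda than in caput, and it was 32.1 (10.9 to 156)-fold higher than in corpus. Hoxc10, a lumbar-level gene of the spinal cord, had 0 (up to 5.12) in caput, 49.2 (39 to 61.3) in corpus and 31.5 (27.1 to 36.4) in cauda. Unlike Hoxa10 and Hoxa11, it was higher in corpus than in cauda, with intervals apart and under 2-fold. Hoxd10 had 0 (up to 5.12) in caput, 1.87 (0.385 to 5.46) in corpus and 16.3 (13.1 to 19.9) in cauda, and Hoxd11, which acts with Hoxa11 in the kidney and forearm, had 0 (up to 5.12) in caput, 0.623 (0.0158 to 3.47) in corpus and 15 (12 to 18.6) in cauda. Cauda was the high region for both, at least 3.91-fold above caput for Hoxd10 and at least 3.61-fold for Hoxd11.

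Corpus was intermediate for most but not all of these genes. Against caput, 18 members had enough UMIs, 8 were higher in caput (background 6.09%) and 4 in corpus (background 5.4%), the latter being Hoxa9, Hoxa10, Hoxc9 and Hoxc10. Against cauda, 22 members were compared, 6 were higher in corpus (background 3.83%) and 5 in cauda (background 4.53%). The 6 were Hoxa5, Hoxa7, Hoxb8, Hoxc6, Hoxc8 and Hoxc9, and the 5 were Hoxa10, Hoxa11, Hoxd9, Hoxd10 and Hoxd11. Thus the HoxC genes of groups 9 and 10 were already high in corpus, while Hoxa11, Hoxd10 and Hoxd11 had 3, 3 and 1 UMIs there.

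By cluster, HoxC genes held, of fibroblast-like Hox UMIs, 53.9% (50.6 to 57.2) in caput, 59.3% (56.3 to 62.2) in corpus and 24.6% (23 to 26.2) in cauda. HoxA genes held 22.5% (19.8 to 25.3) in caput, 22.1% (19.6 to 24.6) in corpus and 44.6% (42.8 to 46.4) in cauda. HoxD genes held 3.54% in caput, 4.63% in corpus and 18.2% in cauda, and HoxB genes 20.1% in caput, 14.1% in corpus and 12.6% in cauda. Cauda thus differed from both other regions in having HoxA and not HoxC as its largest part. Within HoxA the share of high-numbered genes followed the same order, since Hoxa7 was the highest HoxA gene in caput and Hoxa10 in cauda.

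HoxB genes were low in this class. Hoxb7, whose promoter is widely used to mark the Wolffian duct, had 87.4 (67.2 to 112) in caput, 23.7 (16.7 to 32.5) in corpus and 14.9 (11.9 to 18.4) in cauda. Hoxb4, a regulator of blood stem cells, had 45.8 (31.5 to 64.3) in caput, 31.1 (23.1 to 41.1) in corpus and 19.2 (15.8 to 23.2) in cauda, and Hoxb6 had 45.8 (31.5 to 64.3) in caput, 10.6 (6.17 to 17) in corpus and 12.1 (9.39 to 15.3) in cauda. All 3 were highest in caput, as were Hoxb5 (22.2 in caput, 11.2 in corpus and 8.92 in cauda) and Hoxb8 (25 in caput, 13.1 in corpus and 5.6 in cauda). Among HoxD genes of groups 4 and 8, Hoxd4 had 16.7 in caput, 4.98 in corpus and 8.4 in cauda and Hoxd8 had 9.72 in caput, 10.6 in corpus and 16.3 in cauda, and neither passed the size rule between caput and cauda. The other 13 members had at most 17 UMIs in any region and at most 23.6 CPM, and Hoxd1 was at 0.

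Transcripts released from broken cells can be captured with any cell, so each class was also read against the principal-like cells of its own library. The 28 principal-like markers summed to 18.9% of their principal-like level in caput fibroblast-like cells, 13.4% in corpus and 9.54% in cauda. The gate used these same markers, both to choose principal-like cells and to set aside other cells without a lead over them. That choice can lower a marker share but did not use Hox genes. A Hox gene above a marker share, here and below, is therefore no independent sign that the class makes it. Hoxb7 in fibroblast-like cells was 20.05% (15.4 to 25.7) of its principal-like level in caput, 14.3% (10.1 to 19.7) in corpus and 9.03% (7.13 to 11.3) in cauda, so each interval holds the share of the markers. In caput the intervals of Hoxb6, Hoxb8, Hoxb9 and Hoxd4 hold it too, while Hoxb4 (114% (77.7 to 161)) and Hoxb5 (68.9% (39.1 to 113)) lay above it. The 6 HoxB members that were higher in caput than in cauda fibroblast-like cells were, like the principal-like markers there, highest in caput, and the part of free RNA in those 6 was not tested. With HoxB set aside, 6 members were higher in caput (Hoxa5, Hoxa7, Hoxc4, Hoxc5, Hoxc6 and Hoxc8). The reverse reading for Hoxc8 in caput gave a principal-like level of 0.553% (0.392 to 0.762) of its fibroblast-like level, next to 0.373% for the 13 fibroblast markers.

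**Figure D2:**
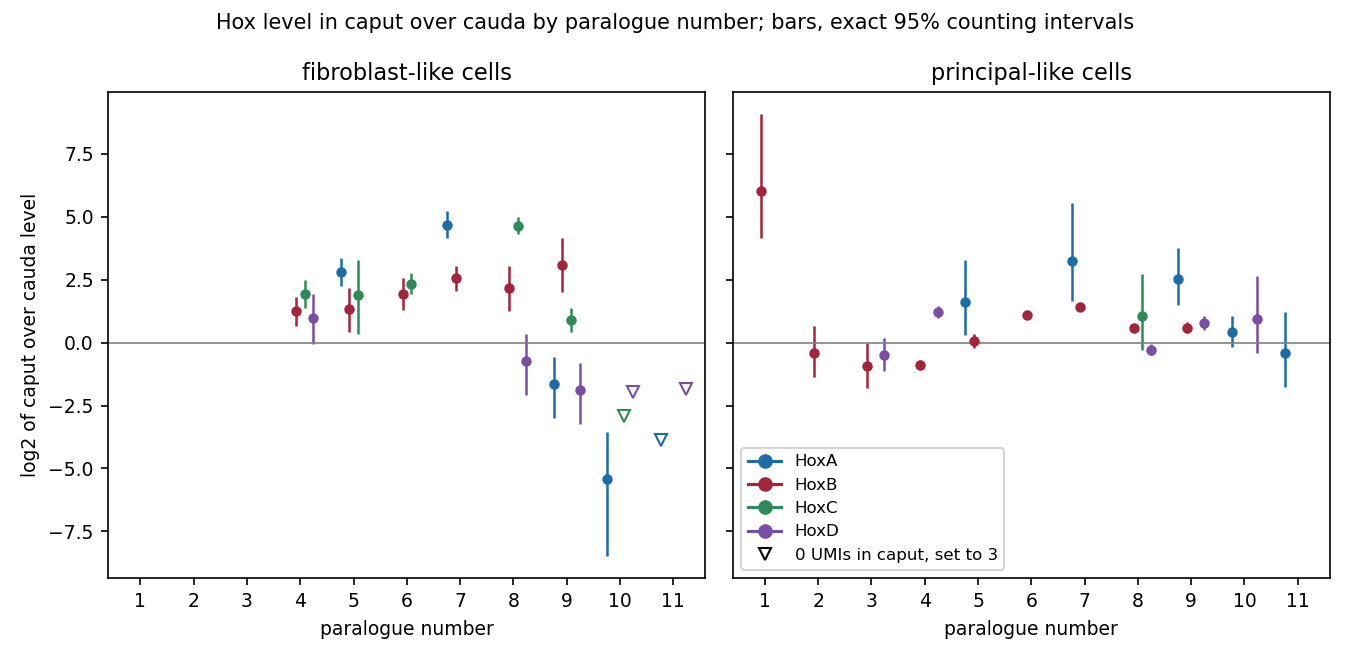
Log2 of the caput over the cauda level against paralogue number in fibroblast-like cells (left) and principal-like cells (right), coloured by cluster, for Hox genes with at least 20 UMIs in the 2 regions together; bars are exact 95% counting intervals and open triangles take 3 UMIs where caput had 0. In fibroblast-like cells groups 4 to 7 lie above 0 and groups 10 and 11 below it, with groups 8 and 9 on both sides, while principal-like cells show no such order.

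Shares of cells gave the same regional order. With each cell thinned to 2000 UMIs, and 0, 64 and 331 shallower fibroblast-like cells left out, the share of cells with a Hoxc8 UMI was 51.7% (44 to 59.4) in caput, 17.8% (14 to 22.2) in corpus and 2.65% (1.74 to 3.86) in cauda. The share with Hoxa10 was 1.16% (0.141 to 4.14) in caput, 7.93% (5.34 to 11.3) in corpus and 19.6% (17.2 to 22.2) in cauda. Without thinning, the shares were 66.9% in caput, 27.6% in corpus and 5.64% in cauda for Hoxc8 and 1.16% in caput, 9.35% in corpus and 31.5% in cauda for Hoxa10. The same genes in macrophage-like cells, which are of blood lineage, gave 2.29% in caput, 0.629% in corpus and 0% in cauda for Hoxc8 and 2.29% in caput, 0% in corpus and 2.86% in cauda for Hoxa10 after thinning. Median UMIs per cell were 3673, 3330 and 3802 in fibroblast-like and 3214, 2883.5 and 3552 in macrophage-like cells. In each library the Hoxc8 share was higher in fibroblast-like cells. The Hoxa10 share of caput fibroblast-like cells did not exceed that of caput macrophage-like cells. These shares rest on 2 of 172 and 3 of 131 cells, and the part of free RNA in them was not tested.

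The mixture of caput-type and cauda-type genes in corpus was also looked at cell by cell. Of 39 corpus fibroblast-like cells with a Hoxa10 UMI, 28.2% (15.0 to 44.9) also had Hoxc8, against 27.5% (23.1 to 32.3) of the 378 cells without Hoxa10. The intervals overlap, and a difference was not detectable at this depth. In cauda, 45.6% (39.0 to 52.3) of the 228 cells with Hoxa11 also had Hoxa10, against 28.5% (25.9 to 31.3) of the 1083 without it. Cells with Hoxa11 were deeper (a median of 5856 UMIs against 3443), and the part of depth in that difference was not tested.

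Clusters built without the 33 Hox genes in the input did not use the gate's calls of single cells. They were named with the same marker lists, and non-coding transcripts of the Hox clusters were not left out of the input. Corpus had 2 clusters named fibroblast-like: one of 418 cells led by Crispld1 and Il33 had 169 (150.0 to 189.6) CPM of Hoxc9 and 109 (94 to 126) of Hoxc8, and one of 162 cells led by Col6a5 and Col6a6 had 92.1 (70.7 to 118) and 68.7 (50.5 to 91.3). Hoxc9 was thus lower in the Col6a5 cluster. In cauda, 734 cells led by Pcolce2 and Pi16 had 127 (116 to 139) of Hoxa10 and 61.2 (53.5 to 69.8) of Hoxa11, and 376 cells led by Col6a5 had 84.9 (71.3 to 100.5) and 44.3 (34.6 to 55.9). Another cauda cluster named fibroblast-like, of 45 cells led by Hmcn2 and Col8a1, had 104 (65.6 to 155) and 99 (62.1 to 149.9). Hoxa10 was lower in the Col6a5 cluster than in the Pcolce2 cluster.

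Smooth muscle-like cells, the contractile cells of the duct wall and vessels, were few, and their values are given without a comparison. Most also carried markers of another class. Leaving out cells with 2 such markers took caput from 70 cells and 402 Hox UMIs to 2 and 0. It took corpus from 18 and 50 to 8 and 14, and cauda from 39 and 120 to 17 and 33. Of the Hox UMIs of all smooth muscle-like cells, groups 9 to 13 made up 14.7% (11.4 to 18.5) in caput, 44% (29.99 to 58.7) in corpus and 83.3% (75.4 to 89.5) in cauda. Hoxc8 had 306 (247 to 375) in caput, 213 (107 to 382) in corpus and 0 (up to 26.5) in cauda, and Hoxa7 had 198 (151 to 254) in caput, 77.6 (21.2 to 199) in corpus and 21.5 (4.44 to 62.9) in cauda. Hoxa10 had 9.88 (2.04 to 28.9) in caput, 38.8 (4.7 to 140.2) in corpus and 344 (254 to 456) in cauda. Hoxc8 and Hoxa7 were high in caput and Hoxa10 was high in cauda. The leading genes of the class also differed by region, with Mustn1 and Rergl in caput and Actg2 in cauda, and the part of muscle type in the Hox values was not tested. In cauda the class also had 122 (71 to 195) of Hoxa11, 78.9 (39.4 to 141) of Hoxd10 and 50.2 (20.2 to 103) of Hoxd11, each with 0 UMIs in caput and corpus. Of the other genes with at least 20 UMIs, Hoxc6 had 105 in caput, 19.4 in corpus and 0 in cauda and Hoxc9 88.9 in caput, 116 in corpus and 0 in cauda. The HoxB genes of the class had 72.4 in caput, 19.4 in corpus and 14.3 in cauda (Hoxb4), 79 in caput, 38.8 in corpus and 14.3 in cauda (Hoxb6) and 145 in caput, 58.2 in corpus and 28.7 in cauda (Hoxb7). Hoxc6, Hoxc8 and Hoxc9 all had no UMI in the 39 cauda cells.

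The summed fibroblast markers in smooth muscle-like cells were 4.99%, 8.70% and 11.1% of their fibroblast-like level in caput, corpus and cauda. Against these, all 9 fibroblast Hox genes with at least 20 UMIs in caput were above the marker share in caput smooth muscle-like cells, and 11 of 20 were in cauda. The smooth muscle-like cells carried a median of 2, 1.5 and 1 fibroblast markers in caput, corpus and cauda, and the part of mixed cells in these values was not tested. Hoxa10 was 291% (212 to 389.7) of the fibroblast-like level in cauda. In the clusters built without Hox genes, 97 caput cells named smooth muscle-like, with Cnn1, Cldn11, Hoxc9 and Hoxc8 among their 10 leading genes, had 676 (603 to 756) of Hoxc8, and 68 cauda cells led by Actg2 had 589 (490.2 to 702) of Hoxa10. Cauda had a second smooth muscle-like cluster, of 25 cells led by Rergl, in which Hoxa10 had fewer than 20 UMIs. In caput, 141 cells in an unnamed cluster led by Mustn1 had 31.7 (21.8 to 44.5) of Hoxc8. The cluster of 97 caput cells and the Actg2 cluster lay above the fibroblast-like cluster levels of their own library, where Hoxc8 was 348 (319 to 379) in caput and Hoxa10 at most 127 in the 3 cauda clusters.

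**Figure D3:**
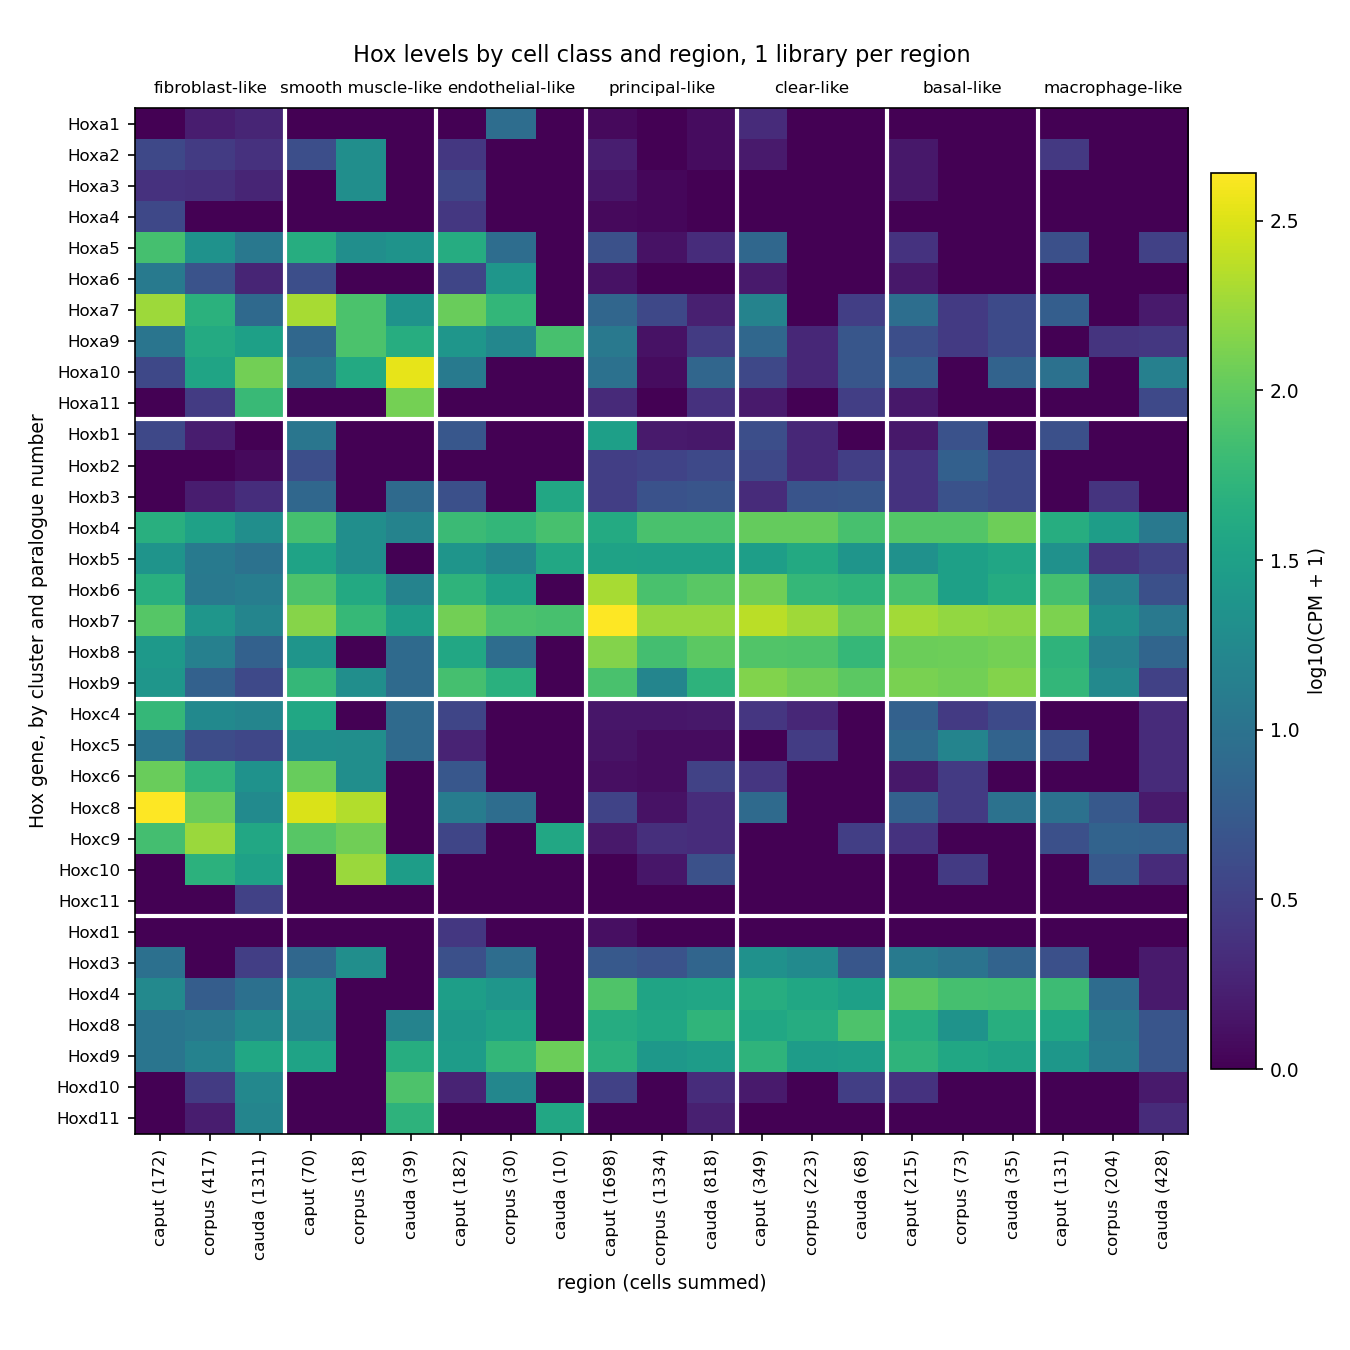
Levels of all 33 Hox genes as log10 of CPM plus 1 (colour) in 7 cell classes and 3 regions, with the number of summed cells in brackets; rows are ordered by cluster and paralogue number. Hoxc8 is brighter in the fibroblast-like columns than in the epithelial columns, where the rows Hoxb4 to Hoxb9 are bright in every region; in smooth muscle-like cells Hoxc6, Hoxc8 and Hoxc9 are at 0 in cauda.

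Principal-like cells, the secretory and absorptive cells that line the duct, drew on another cluster. Of their Hox UMIs, HoxB genes held 81.7% (81.2 to 82.2) in caput, 80.6% (79.4 to 81.7) in corpus and 78.1% (76.5 to 79.6) in cauda. HoxD genes held 15.2% in caput, 18.2% in corpus and 18.8% in cauda, and HoxC genes 0.342% in caput, 0.543% in corpus and 1.34% in cauda. The sum of all 33 was 1168 (1153 to 1184) in caput, 544 (529 to 560.1) in corpus and 658 (634 to 683) in cauda, highest in caput. Hoxb7 led in every region. The share of groups 9 to 13 was 12.4% (12 to 12.9) in caput, 7.65% (6.91 to 8.44) in corpus and 14.3% (13 to 15.6) in cauda, lowest in corpus.

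In these cells Hoxb7 had 436 (427 to 446) in caput, 165 (157 to 174) in corpus and 165 (153 to 177) in cauda. Hoxb6 had 197 (191 to 204) in caput, 74.5 (68.9 to 80.4) in corpus and 91.6 (82.8 to 101) in cauda, and Hoxb8, known from mice that groom excessively without it, had 139 (134 to 145) in caput, 69.9 (64.5 to 75.7) in corpus and 94.4 (85.4 to 104) in cauda. In these sums caput was highest for all 3, by 2.65 (2.45 to 2.87)-fold over cauda for Hoxb7 and 2.15 (1.94 to 2.39)-fold for Hoxb6. Not every caput cluster was high. Among principal-like clusters with at least 20 Hoxb7 UMIs, Hoxb7 ranged from 210 to 594 in caput, 127 to 299 in corpus and 110 to 177 in cauda. The ranges of caput and corpus overlap. Hoxb4 ran the other way with 40.2 (37.4 to 43.3) in caput, 75.9 (70.2 to 81.8) in corpus and 74.7 (66.7 to 83.3) in cauda, caput being lowest by under 2-fold. Hoxb5 was level, with 32.3 (29.7 to 35) in caput, 31.7 (28.1 to 35.7) in corpus and 31.3 (26.2 to 37) in cauda. Hoxb9 had 75.1 (71.2 to 79.2) in caput, 14.8 (12.4 to 17.6) in corpus and 50.1 (43.6 to 57.2) in cauda. In these sums corpus was the low region: caput was 5.08 (4.24 to 6.13)-fold and cauda 3.39 (2.71 to 4.24)-fold above it. The corpus clusters built without Hox genes were not alike. Hoxb9 had 7.33 (4.7 to 10.9) in 317 principal-like cells led by Ltf and 55.6 (43 to 70.7) in 196 led by Spint4. Cauda principal-like clusters of 547 and 326 cells had 40.6 and 52.6. The part of principal-like subtypes in the low corpus sum was not tested.

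Hoxb1, a gene known for hindbrain segment identity, was far higher in caput principal-like cells than in those of corpus and cauda. It had 30.1 (27.6 to 32.7) in caput, 0.569 (0.185 to 1.33) in corpus and 0.464 (0.0562 to 1.68) in cauda, from 542, 5 and 2 UMIs. Caput was 52.9 (22.5 to 164)-fold above corpus and 64.9 (17.9 to 537)-fold above cauda. With cells thinned to 2000 UMIs, and 17, 323 and 395 shallower cells left out, the share with a Hoxb1 UMI was 5.29% (4.27 to 6.48) in caput, 0.0989% (0.0025 to 0.55) in corpus and 0% (0 to 0.868) in cauda. Without thinning it was 16.8% in caput, 0.225% in corpus and 0.244% in cauda. Caput basal-like cells had 0.47 (0.0119 to 2.62) and caput fibroblast-like cells 2.78 (0.336 to 10.03). Among clusters built without Hox genes, the 552 principal-like cells led by Trpm6 and Teddm2 had 52.8 (47.1 to 58.9), and the other principal-like clusters with at least 20 UMIs had 13.7 to 40.2. Hoxb1 was not confined to these clusters: a caput cluster of 108 cells named clear-like had 46.8 (36.9 to 58.6), while gated clear-like caput cells had 3.28 (1.21 to 7.15). That cluster was deep, with a median of 12416 UMIs per cell against 3570 in the other clear-like caput cluster. Its Hoxb7 level was 459 (426 to 493) against 238 (219 to 258) there. No doublet caller was run, and the part of mixed cells in its Hoxb1 was not tested. The caput macrophage-like cluster had 16.2 (10.6 to 23.7) of Hoxb1, below each of these principal-like clusters except one of 119 cells.

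Posterior HoxA genes in principal-like cells were low and lowest in corpus. Hoxa9 had 10.6 (9.15 to 12.2) in caput, 0.341 (0.0704 to 0.997) in corpus and 1.85 (0.801 to 3.65) in cauda and Hoxa10 8.66 (7.35 to 10.1) in caput, 0.227 (0.0275 to 0.822) in corpus and 6.49 (4.31 to 9.38) in cauda. Both were higher in caput than in corpus, by 31.1 (10.5 to 152)-fold and 38.1 (10.4 to 317)-fold, and corpus rested on 3 and 2 UMIs. In fibroblast-like cells caput was the lowest region for both genes. In cauda, Hoxa10 in principal-like cells was 5.48% (3.61 to 7.99) of its fibroblast-like level, an interval that holds the 4.35% of the fibroblast markers. In caput the principal-like and fibroblast-like intervals of Hoxa10 overlap. A cluster of 39 caput cells led by Wfdc18, Ankrd1 and Lhx1, in which no principal marker was enriched 2-fold, had 55.5 (34.8 to 84) of Hoxa10.

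HoxD genes of principal-like cells were those of groups 3 to 9. Hoxd4 had 81.3 (77.2 to 85.6) in caput, 33.8 (30.05 to 37.8) in corpus and 35.5 (30.1 to 41.6) in cauda, Hoxd8 42.5 in caput, 36.7 in corpus and 52.2 in cauda, Hoxd9 47.1 in caput, 24.6 in corpus and 27.8 in cauda and Hoxd3 4.44 in caput, 3.75 in corpus and 6.26 in cauda. Only Hoxd4 of these passed the size rule between caput and another region. The other members named by at least 20 UMIs were low: Hoxa5 had 3.55 in caput, 0.341 in corpus and 1.16 in cauda, Hoxa7 6.49 in caput, 2.73 in corpus and 0.696 in cauda, Hoxb2 2.11 in caput, 2.39 in corpus and 2.78 in cauda, Hoxb3 2.05 in caput, 3.64 in corpus and 3.94 in cauda, Hoxc8 2.39 in caput, 0.341 in corpus and 1.16 in cauda and Hoxd10 2.22 in caput, 0 in corpus and 1.16 in cauda. None of these 6 reached 10 CPM in any region. The remaining 14 had at most 19 UMIs and 3.48 CPM, and Hoxc11 was at 0.

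Counted by the size rule, 11 of 20 members were higher in caput than in corpus principal-like cells and 0 the other way, next to backgrounds of 15.9% and 16.8% of all genes. Against cauda, 7 of 20 were higher in caput and 0 in cauda (backgrounds 16.3% and 19.5%). Without any limit on the number of UMIs, the rule took 1 member as higher in corpus and 3 as higher in cauda than in caput. Between corpus and cauda, 1 of 14 was higher in corpus (Hoxa7, background 9.35%) and 2 in cauda (Hoxa10 and Hoxb9, background 11.3%). The 7 members higher in caput than in cauda came from HoxA (3), HoxB (3) and HoxD (1). Of these, 6 were of groups 1 to 8 and the other was Hoxa9, a split near that of the caput-higher members in fibroblast-like cells. The difference lay on the other side: with the minimum of UMIs, 0 members of groups 9 to 13 were higher in cauda.

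**Figure D4:**
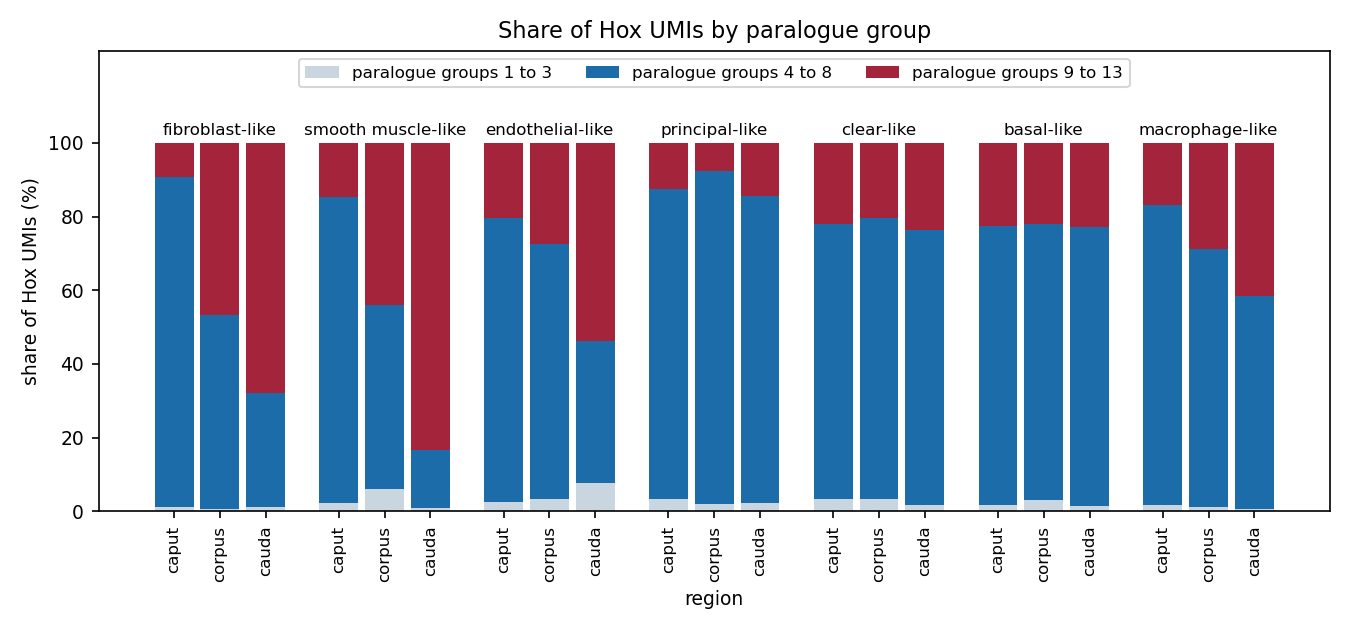
Share of Hox UMIs from paralogue groups 1 to 3, 4 to 8 and 9 to 13 (stacked bars, %) in each class and region. The share of groups 9 to 13 goes from 9.18% in caput to 67.8% in cauda in fibroblast-like cells and from 14.7% to 83.3% in smooth muscle-like cells, but stays between 7.65% and 23.7% in principal-like, clear-like and basal-like cells; endothelial-like and smooth muscle-like bars of corpus and cauda rest on 10 to 39 cells.

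Clear-like cells, the proton-pumping cells of the epithelium, and basal-like cells at its base shared the HoxB profile. Of clear-like Hox UMIs, HoxB genes held 78.4% in caput, 81.8% in corpus and 72.3% in cauda and groups 9 to 13 held 22.1% in caput, 20.3% in corpus and 23.7% in cauda. Of basal-like Hox UMIs, HoxB genes held 71.6% in caput, 77.1% in corpus and 77.1% in cauda and groups 9 to 13 held 22.5% in caput, 22.1% in corpus and 22.9% in cauda. The summed level was 902 (859 to 946) in caput, 712 (661 to 765) in corpus and 574 (509 to 646) in cauda in clear-like cells and 850.1 (811 to 890.2) in caput, 721 (652 to 796) in corpus and 789 (697 to 889) in cauda in basal-like cells. In both classes the intervals of the 3 regional shares of groups 9 to 13 overlap.

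In clear-like cells Hoxb7 had 233 (212 to 256) in caput, 184 (159 to 212) in corpus and 112 (83.8 to 146) in cauda. Hoxb9, a gene of rib cage patterning, had 138 (122 to 157) in caput, 115 (95.1 to 137) in corpus and 93 (67.8 to 124) in cauda, and Hoxb4 had 102 (88.2 to 118) in caput, 102 (83.7 to 124) in corpus and 74.4 (52.1 to 103) in cauda. Hoxb9 and Hoxb4 each had overlapping intervals in the 3 regions. Hoxb6 had 115 (99.9 to 132) in caput, 55.9 (42.5 to 72.3) in corpus and 51.7 (33.4 to 76.3) in cauda, with caput apart from corpus and cauda. Hoxb8 had 82.1 in caput, 80.05 in corpus and 55.8 in cauda and Hoxb5 29 in caput, 39.5 in corpus and 22.7 in cauda. Hoxd8 had 36.7 (28.4 to 46.6) in caput, 42.4 (30.8 to 57) in corpus and 78.5 (55.6 to 108) in cauda and was 2.14 (1.4 to 3.24)-fold higher in cauda than in caput. Hoxd4 had 42.7 in caput, 36.6 in corpus and 31 in cauda, Hoxd9 50.9 in caput, 28 in corpus and 28.9 in cauda, Hoxd3 20.8 in caput, 17.4 in corpus and 4.13 in cauda and Hoxa7 14.2 in caput, 0 in corpus and 2.07 in cauda. Hoxd8 was the only one of these 11 with its highest value in cauda. The other 22 members had at most 13 UMIs and 7.11 CPM, and 6 were at 0.

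By the size rule, 2 of 11 members (Hoxa7 and Hoxb6) were higher in caput than in corpus clear-like cells and 0 in corpus (backgrounds 5.68% and 4.02%). Against cauda, 4 of 11 (Hoxa7, Hoxb6, Hoxb7 and Hoxd3) were higher in caput and 1 (Hoxd8) in cauda (backgrounds 8.14% and 8.2%). The 4 became 0 with mixed-marker cells left out, 1 with UMIs thinned to equal totals, 2 with the stricter gate or with cells of at most 20% mitochondrial UMIs, and 8 with classes from clusters. Hoxd8 no longer passed with TMM factors or with the mitochondrial limit. The 2 that were higher in caput than in corpus became 0 with thinning, 1 with the stricter gate, 6 with classes from clusters and 5 with no minimum of UMIs. Between corpus and cauda 1 of 10 (Hoxd3) was higher in corpus and 0 in cauda (backgrounds 4.19% and 5.39%). A caput cluster of 108 cells named clear-like had 46.8 (36.9 to 58.6) of Hoxb1, with Hoxb1 among its 10 leading genes, while gated clear-like cells of caput had 3.28 (1.21 to 7.15). Its cells had a median of 12416 UMIs against 3570 in the other clear-like caput cluster, and the part of mixed cells in it was not tested.

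In basal-like cells Hoxb7 had 186 (169 to 206) in caput, 163 (131 to 200.5) in corpus and 151 (113 to 199) in cauda. Hoxb9 had 128 (113 to 144) in caput, 119.6 (92.5 to 152) in corpus and 139 (102 to 185) in cauda, and Hoxb8 had 111 (97.6 to 126) in caput, 114 (87.7 to 146) in corpus and 122 (87.2 to 165) in cauda. The 3 regions overlap for each of these. Hoxd4, needed for the neck vertebrae, had 93.9 (81.4 to 108) in caput, 72.5 (51.8 to 98.7) in corpus and 68.2 (43.2 to 102) in cauda. Hoxb4 had 84.1 in caput, 85.2 in corpus and 113 in cauda, Hoxb6 75.1 in caput, 30.8 in corpus and 41.5 in cauda and Hoxb5 20.7 in caput, 30.8 in corpus and 35.6 in cauda. Hoxd9 had 51.7 in caput, 36.2 in corpus and 32.6 in cauda, Hoxd8 43.2 in caput, 21.7 in corpus and 44.5 in cauda and Hoxd3 11.3 in caput, 9.06 in corpus and 5.93 in cauda. Hoxb6 was the 1 of 11 members higher in caput than in corpus by the size rule (background 4.57%), and 0 were higher in corpus (background 3.31%). Cauda had 35 basal-like cells, so it was not compared. The other 23 members had at most 17 UMIs and 14.5 CPM, and 5 were at 0.

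In caput both classes had more of some HoxB genes than the principal-like cells beside them. Hoxb4 in clear-like cells was 254% (215 to 299) of its principal-like level and Hoxb9 was 184% (161 to 211). In basal-like cells the shares were 209% (176 to 246) for Hoxb4 and 170.1% (149 to 194) for Hoxb9. Hoxb7 was lower in both, at 53.4% (48.4 to 58.9) in clear-like and 42.7% (38.6 to 47.3) in basal-like cells. The principal-like markers stood at 18.7% and 12.7% in the same cells, below each of these values. In caput with TMM factors, which raise principal-like levels, Hoxb4 was 153% (129 to 179.7) in clear-like and 128% (108 to 151) in basal-like cells, while Hoxb9 was 111% (96.5 to 127) and 105% (91.5 to 119), so that in caput Hoxb9 no longer stood apart from its principal-like level. In corpus, with the same factors, Hoxb9 was 486% (376 to 628) in clear-like and 482% (353 to 653) in basal-like cells, and in cauda it was 111% (78.8 to 154) and 157% (112 to 216). The corpus values are set against all principal-like cells summed, whose clusters ranged from 7.33 to 55.6 CPM of Hoxb9 where it had at least 20 UMIs. Hoxb4 was 84.4% (68.1 to 104) and 66.9% (48.6 to 89.9) in corpus, and 59.7% (41.1 to 84.4) and 85.2% (59.2 to 119.5) in cauda. In caput, 15 of the 19 members with at least 20 principal-like UMIs were above the marker share in clear-like and 15 in basal-like cells. The gate used the same markers, which can lower that share. Hoxb1 in basal-like cells, at 1.56% (0.0395 to 8.73), was the 1 member below it.

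**Figure D5:**
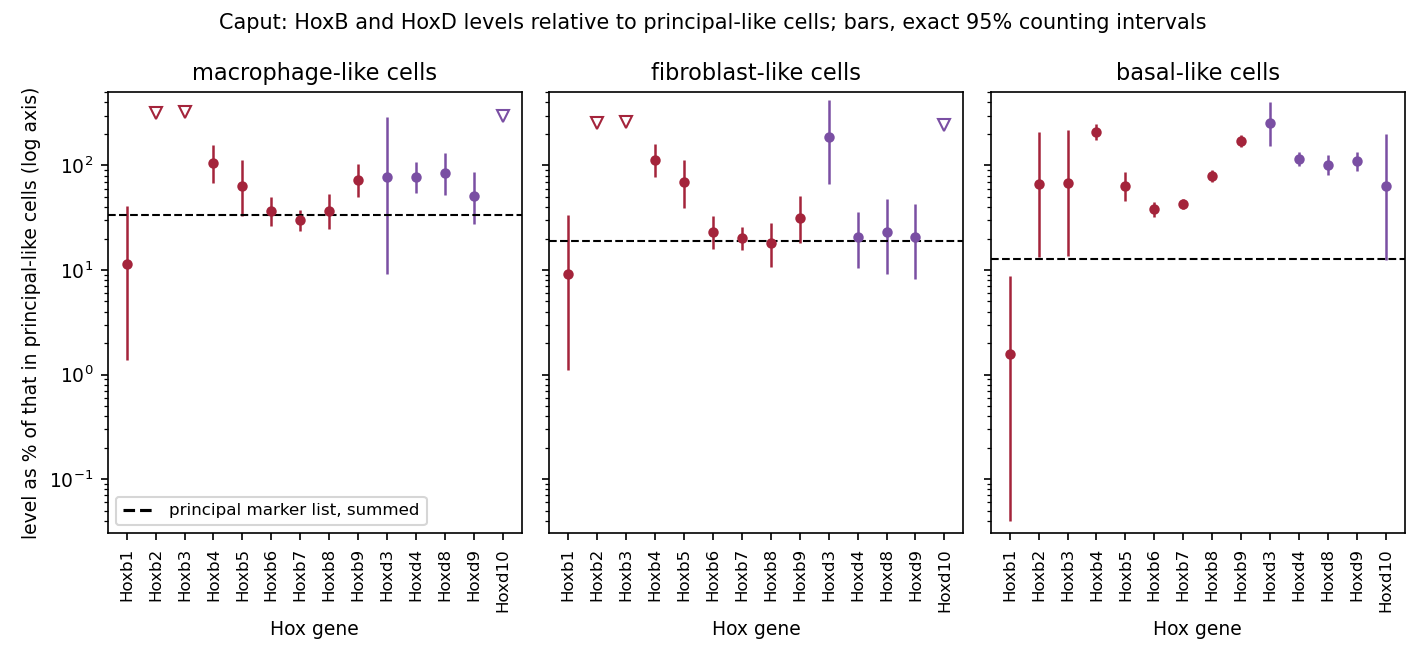
Caput levels of HoxB and HoxD genes in macrophage-like, fibroblast-like and basal-like cells as a percentage of the principal-like level (log axis), for genes with at least 20 principal-like UMIs; bars are exact 95% counting intervals, open triangles upper limits at 0 UMIs, and the dashed line is the same percentage for the principal marker list. In fibroblast-like cells the intervals of Hoxb6 to Hoxb9 hold the line at 18.9%, while in basal-like cells Hoxb4 to Hoxb9 lie above the line at 12.7%.

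Fibroblast-like and principal-like cells were set side by side within each library, where dissection is shared. The depth per cell was not: median UMIs per cell were 7717.5, 3882 and 2122 in principal-like and 3673, 3330 and 3802 in fibroblast-like cells of caput, corpus and cauda. In caput, 6 of 22 members were higher in fibroblast-like cells (background 17.1%) and 8 in principal-like cells (background 9.37%). In corpus 9 of 21 were higher in each class (backgrounds 21.7% and 17.8%), and in cauda 12 of 23 were higher in fibroblast-like (27.1%) and 10 in principal-like cells (17.3%). HoxA and HoxC genes passed only as higher in fibroblast-like cells, and HoxB genes only as higher in principal-like cells. HoxD genes were on both sides. Hoxd10 and Hoxd11 were higher in fibroblast-like cells of cauda, while Hoxd3, Hoxd4, Hoxd8 and Hoxd9 passed as higher in principal-like cells in some library. These directions held with TMM factors, which moved log2 ratios of fibroblast-like over principal-like cells by -0.63 in caput, -0.41 in corpus and -0.18 in cauda. Hoxc8 was 181 (131 to 255)-fold higher in fibroblast-like cells in caput, 319 (108 to 1564)-fold in corpus and 14.9 (6.19 to 47)-fold in cauda. Hoxb7 was 4.99 (3.89 to 6.5)-fold, 6.99 (5.07 to 9.91)-fold and 11.1 (8.83 to 14)-fold higher in principal-like cells.

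The 2 paralogues of group 7 in the table thus lay apart by class. Hoxa7 was 27.6 (21.3 to 35.7)-fold higher in caput fibroblast-like than in principal-like cells, and Hoxb7 was higher in principal-like cells.

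Endothelial-like cells, which line vessels, were numerous enough only in caput, with 182 cells against 30 and 10. Leaving out cells with 2 markers of another class took caput from 182 cells and 802 Hox UMIs to 40 and 100, and the values below are of all 182. There HoxB genes held 55.1% (51.6 to 58.6) of Hox UMIs, HoxA genes 28.6% (25.4 to 31.8), HoxD genes 13.1% (10.8 to 15.6) and HoxC genes 3.24% (2.13 to 4.71). The summed level was 674 CPM. Hoxb7 had 119 (99.8 to 139.8), Hoxa7 108 (89.8 to 128), Hoxb9 72.3 (57.8 to 89.3) and Hoxb4 62.2 (48.9 to 78.1). Hoxb6 had 51.3, Hoxa5 42 and Hoxb8 37. Hoxd4, Hoxd9, Hoxd8, Hoxa9 and Hoxb5 had 22.7 to 29.4. The HoxA share lay above that of principal-like cells and the HoxC share below that of fibroblast-like cells, with intervals apart. Hoxc8 had 11.8 (6.44 to 19.8), next to 432 in fibroblast-like cells, and Hoxa7 stood between its fibroblast-like 179 and its principal-like 6.49.

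Endothelial-like caput cells carried 14.9% of the principal-like markers' level, and 16 of 19 members were above that share. In corpus, Hoxb7 had 78 (37.4 to 143), Hoxa7 54.6 (22 to 113), Hoxb4 54.6 (22 to 113) and Hoxd9 54.6 (22 to 113). The 10 cauda cells held 13 Hox UMIs, too few to describe by gene. The other 21 members had at most 14 UMIs in any region, and Hoxa11, Hoxb2, Hoxc10 and Hoxc11 were at 0.

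Macrophage-like cells, which are not formed from the duct, were read beside the other classes of each library. Leaving out those with 2 markers of another class took caput from 131 cells and 313 Hox UMIs to 36 and 12. It took corpus from 204 and 94 to 109 and 24, and cauda from 428 and 137 to 261 and 65. The values here are of all macrophage-like cells, mixed ones included. Their summed Hox level was 537 (479 to 599) in caput, 141 (114 to 172) in corpus and 77.8 (65.3 to 92) in cauda. Hoxb7 alone had 130.3 (103 to 163) in caput, 19.5 (10.4 to 33.3) in corpus and 10.8 (6.5 to 16.9) in cauda. Both lay in the order caput, corpus, cauda, and so did the principal-like markers, at 33.8%, 15.3% and 5.64% of their principal-like level. Hoxb7 was 29.9% (23.5 to 37.4), 11.8% (6.26 to 20.2) and 6.56% (3.92 to 10.3) of its principal-like level, and each interval holds the marker share. Between caput and corpus 6 of 8 members were higher in caput and 0 in corpus (backgrounds 10.4% and 7.88%), and between caput and cauda 8 of 9 were higher in caput and 0 in cauda (11.7% and 15.7%). Between corpus and cauda Hoxb4 was higher in corpus and Hoxa10 in cauda, of 4 compared (3.98% and 6.02%).

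Not all Hox genes in macrophage-like cells kept to the marker share. In caput, Hoxb4, Hoxb9, Hoxc8, Hoxd4 and Hoxd8 were above it and the intervals of the other 14 hold it. Hoxb4 was 106% (68.5 to 158) and Hoxb9 73% (49.8 to 104) of the principal-like level. In cauda, Hoxa10 had 13.1 (8.28 to 19.6), next to 118 in fibroblast-like cells, and the fibroblast markers stood at 5.95% of their fibroblast-like level.

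Hox proteins bind DNA with TALE homeodomain partners, are silenced by Polycomb and kept active by Trithorax complexes, and many respond to retinoic acid. Of 99 further genes on 7 such lists, 80 were in the table, and 59 had enough UMIs in caput and cauda fibroblast-like cells. There 9 were higher in caput and 5 in cauda, next to 7.61% and 7.36% of all genes. These counts depended on the setting: with TMM factors they were 4 and 10, and with the sums thinned to equal totals 3 and 0. Both settings were counted over the 7 lists together.

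Of the TALE partners, 0 of 8 passed the rule in either direction between caput and cauda fibroblast-like cells (backgrounds 7.61% and 7.36%). Between corpus and cauda, Meis2 was the 1 of 8 higher in cauda (background 4.53%), and 0 were higher in corpus (background 3.83%). Meis2 had 122 in caput, 106 in corpus and 226 in cauda and Meis1 58.3 in caput, 55.4 in corpus and 78.6 in cauda. In principal-like cells Meis2 had 0.833 in caput, 1.48 in corpus and 8.12 in cauda, so it was lower in the epithelium. In cauda 6 of 9 TALE genes were higher in fibroblast-like (background 27.1%) and 0 in principal-like cells (background 17.3%). Polycomb and Trithorax genes had 0 of 14 members past the rule between caput and cauda fibroblast-like cells (backgrounds 7.61% and 7.36%). Kmt2a, the Trithorax methyltransferase, had 49.97 in caput, 62.3 in corpus and 51.1 in cauda.

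Of the retinoic acid genes, 4 of 11 were higher in caput than in cauda fibroblast-like cells and 0 in cauda (backgrounds 7.61% and 7.36%). The median log2 ratio of caput over cauda of the 11 was -0.12. Aldh1a1, a retinoic acid synthesising enzyme, had 339 in caput, 224 in corpus and 139 in cauda. In principal-like cells Aldh1a1 had 429 in caput, 553 in corpus and 531 in cauda. Among non-coding transcripts of the clusters, 2 of 3 were higher in cauda (background 7.36%) and 0 in caput fibroblast-like cells (background 7.61%). Hoxa11os, antisense to Hoxa11, had 0 in caput, 1.25 in corpus and 14.2 in cauda. Because Hoxa11os and Hoxa11 overlap, reads of one cannot be told apart from the other where strand was not used. Hoxd3os1 had 5.55 in caput, 11.2 in corpus and 15.4 in cauda in fibroblast-like and 36.2 in caput, 47.3 in corpus and 40.8 in cauda in principal-like cells.

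Of the Wolffian duct factors, 2 of 12 were higher in caput and 2 in cauda fibroblast-like cells (backgrounds 7.61% and 7.36%). Nr2f2 had 341 in caput, 385 in corpus and 374 in cauda, and Osr1, an intermediate mesoderm factor, had 44.4 in caput, 145 in corpus and 82.9 in cauda. In principal-like cells Pax8 had 79.7 in caput, 92 in corpus and 54.3 in cauda and Emx2 70.1 in caput, 84.4 in corpus and 75.8 in cauda. Of the signals, 3 of 10 were higher in caput and 1 in cauda fibroblast-like cells (backgrounds 7.61% and 7.36%). Wnt5a had 319 in caput, 228 in corpus and 190.2 in cauda and Inhba, the activin subunit needed for coiling of the Wolffian duct, had 189 in caput, 20.6 in corpus and 44.3 in cauda.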

How the data were processed

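Single-cell RNA was measured in 3 libraries, 1 per epididymal region. The deposited values are whole-number UMI counts per gene and cell in 1 merged table. STAR 2.7.3a, UMI-tools and the GRCm38.p6 build are named in the submitters' processing notes, and the sources used here do not give other upstream settings. The members, gene lists and alternatives were chosen with earlier results of these data known, and the gate's thresholds were set after marker counts and some Hox values had been seen.

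Cells with at least 200 genes were kept. A marker was carried where its count had a Poisson probability under 0.01 at the level of the library's cells poorest in that list. A class needed 4 carried markers and a carried share 1.5 times that of the next class. No doublet caller was run. Cells without that lead were set aside, but cells with the lead were kept even where they carried some markers of another class. Counts were summed per class and region. Levels have exact Poisson, ratios exact conditional binomial and shares Clopper-Pearson 95% intervals. Comparisons needed 50 cells of the class in both regions, and a count of 0 was taken as 3. Members with at least 20 UMIs in a class in some region are given one by one, and up to 3 members of each other list, those with the most UMIs. The script was tested on simulated counts. Clusters without Hox genes used scanpy 1.11.5 (Leiden, seed 0), TMM factors edgeR 4.0.16. Homeoboxes and positions come from GENCODE for GRCm38, in which all 33 members were matched by symbol.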

Additional observations from a re-analysis of the deposited data

How the results depend on the processing

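No paired analysis was possible because each region had 1 library, and leaving out a replicate was not possible for the same reason. In the comparisons of single Hox genes, no difference past the size rule reversed under any setting. Counting only groups 10 to 13 in place of 9 to 13 gave fibroblast-like shares of 0.221% in caput, 12.7% in corpus and 47.2% in cauda, in the same order. Requiring 500 genes per cell left all 60 summary values within their spread or within 1.5 times. Of 126 gene differences past the rule, 37 no longer passed with mixed-marker cells left out and 4 with TMM factors. The looser gate, stricter gate, mitochondrial limit, thinning, TMM factors and minimum of UMIs left the fibroblast-like counts between regions within 1.5 times. The settings for fibroblast-like against principal-like cells and for the other pathway genes were chosen after seeing the data. The causes of the changes that follow were not tested, except that a higher ratio and fewer cells or UMIs leave fewer genes that can pass. A ratio of at least 4 with an interval that excludes 2 moved the counts of members in principal-like cells from 11 to 7 (caput over corpus), 7 to 3 (caput over cauda), 1 to 0 (corpus over cauda) and 2 to 1 (cauda over corpus), in clear-like cells from 2 to 1 (caput over corpus), 4 to 0 (caput over cauda), 1 to 0 (cauda over caput) and 1 to 0 (corpus over cauda), in basal-like cells from 1 to 0 (caput over corpus) and in fibroblast-like cells from 8 to 1 (caput over corpus), 4 to 2 (corpus over caput), 12 to 7 (caput over cauda), 7 to 3 (cauda over caput), 6 to 3 (corpus over cauda) and 5 to 3 (cauda over corpus). Classes from clusters built without Hox genes moved the counts of members in principal-like cells from 0 to 1 (corpus over caput) and 0 to 3 (cauda over caput), in clear-like cells from 2 to 6 (caput over corpus), 4 to 8 (caput over cauda) and 1 to 2 (cauda over caput) and in basal-like cells from 1 to 3 (caput over corpus). They also moved the counts of other pathway genes in fibroblast-like cells from 5 to 9 for those higher in cauda. They also gave shares of 43.1% in corpus fibroblast-like cells (from 46.7%) for groups 9 to 13, 80.3% in caput principal-like cells (from 81.7%) and 81.6% in caput clear-like cells (from 78.4%) for HoxB, 18.5% in caput fibroblast-like cells (from 22.5%) and 19.6% in corpus fibroblast-like cells (from 22.1%) for HoxA and 43.2% in caput fibroblast-like cells (from 53.9%), 53.6% in corpus fibroblast-like cells (from 59.3%) and 27.1% in cauda fibroblast-like cells (from 24.6%) for HoxC. They also gave summed Hox levels of 1093 in caput principal-like cells (from 1168), 581 in corpus principal-like cells (from 544), 1049.6 in caput clear-like cells (from 902), 652 in cauda clear-like cells (from 574) and 648 in corpus basal-like cells (from 721). Leaving out cells with 2 markers of another class moved the counts of members in principal-like cells from 0 to 2 (corpus over caput), 0 to 1 (cauda over caput), 1 to 0 (corpus over cauda) and 2 to 1 (cauda over corpus), in clear-like cells from 4 to 0 (caput over cauda), 1 to 0 (corpus over cauda) and 0 to 1 (cauda over corpus) and in fibroblast-like cells from 8 to 5 (caput over corpus), 12 to 6 (caput over cauda) and 7 to 3 (cauda over caput). This setting also moved the counts of other pathway genes in fibroblast-like cells from 5 to 1 for those higher in cauda. This setting also gave shares of 2.6% in caput fibroblast-like cells (from 9.18%) and 69.8% in cauda fibroblast-like cells (from 67.8%) for groups 9 to 13, 79.8% in cauda principal-like cells (from 78.1%), 80.4% in caput clear-like cells (from 78.4%) and 69.8% in cauda basal-like cells (from 77.1%) for HoxB and 64.1% in caput fibroblast-like cells (from 53.9%) and 62.5% in corpus fibroblast-like cells (from 59.3%) for HoxC. This setting also gave summed Hox levels of 1133 in caput principal-like cells (from 1168), 573 in corpus principal-like cells (from 544), 653 in corpus clear-like cells (from 712), 696 in cauda basal-like cells (from 789) and 558 in cauda fibroblast-like cells (from 516). Dropping the minimum number of UMIs moved the counts of members in principal-like cells from 0 to 1 (corpus over caput), 0 to 3 (cauda over caput) and 2 to 7 (cauda over corpus) and in clear-like cells from 2 to 5 (caput over corpus). A looser gate moved the counts of members in principal-like cells from 0 to 1 (cauda over caput). Thinning the sums to equal totals moved the counts of members in principal-like cells from 1 to 0 (corpus over cauda), in clear-like cells from 2 to 0 (caput over corpus), 4 to 1 (caput over cauda) and 1 to 0 (corpus over cauda) and in basal-like cells from 1 to 2 (caput over corpus). This setting also moved the counts of other pathway genes in fibroblast-like cells from 9 to 3 for those higher in caput and 5 to 0 for those higher in cauda. This setting also gave shares of 50.6% in corpus fibroblast-like cells (from 46.7%) and 69.9% in cauda fibroblast-like cells (from 67.8%) for groups 9 to 13, 74.4% in caput basal-like cells (from 71.6%) for HoxB and 27.7% in cauda fibroblast-like cells (from 24.6%) for HoxC. This setting also gave summed Hox levels of 1190.4 in caput principal-like cells (from 1168) and 988 in caput clear-like cells (from 902). Keeping cells with at most 20% mitochondrial UMIs moved the counts of members in principal-like cells from 2 to 1 (cauda over corpus) and in clear-like cells from 4 to 2 (caput over cauda), 1 to 0 (cauda over caput) and 1 to 0 (corpus over cauda). This setting also gave summed Hox levels of 693 in cauda principal-like cells (from 658). A stricter gate moved the counts of members in clear-like cells from 2 to 1 (caput over corpus), 4 to 2 (caput over cauda) and 1 to 0 (corpus over cauda). TMM factors moved the counts of members in clear-like cells from 1 to 0 (cauda over caput) and in basal-like cells from 1 to 2 (caput over corpus). They also moved the counts of other pathway genes in fibroblast-like cells from 9 to 4 for those higher in caput and 5 to 10 for those higher in cauda. They also gave summed Hox levels of 1874 in caput principal-like cells (from 1168), 841 in corpus principal-like cells (from 544), 963 in cauda principal-like cells (from 658), 503 in cauda clear-like cells (from 574), 651 in cauda basal-like cells (from 789), 799 in corpus fibroblast-like cells (from 686) and 666 in cauda fibroblast-like cells (from 516). Leaving cells unthinned gave shares of cells of 66.9% for Hoxc8 in caput fibroblast-like cells (from 51.7%), 27.6% for Hoxc8 in corpus fibroblast-like cells (from 17.8%), 5.64% for Hoxc8 in cauda fibroblast-like cells (from 2.65%), 31.5% for Hoxa10 in cauda fibroblast-like cells (from 19.6%), 83.2% for Hoxb7 in caput principal-like cells (from 52%), 45.3% for Hoxb7 in corpus principal-like cells (from 26.4%) and 34.4% for Hoxb7 in cauda principal-like cells (from 21.7%). A count of 0 allowed 9.88, 58.2 and 21.5 CPM in smooth muscle-like cells of caput, corpus and cauda, 23.4 and 111 in endothelial-like cells of corpus and cauda, and 8.89 in basal-like cells of cauda.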
